A study of Mus musculus with 9 samples.

Results

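The 8 genes described here encode alternative forms of 4 subunits of cytochrome c oxidase. Cox7a1, Cox8b and Cox6a2 are the muscle-type forms of subunits 7A, 8 and 6A, and Cox7a2, Cox8a and Cox6a1 are the common forms of the same subunits. Cox4i1 and Cox4i2 are the common and the low-oxygen form of subunit 4. They were taken by gene symbol from the 55401 genes of the table, each symbol had 1 row, and all 8 passed the filter on low counts that left 15893 genes for testing. The set was chosen by values measured in these libraries: in an earlier pass over the same data Cox7a1 and Cox8b were lower in untrained than in sham libraries. For the 3 muscle-type genes the comparisons with sham are therefore a description and carry no test.

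The libraries came from spinal motoneurons of wild-type (WT) mice that carried the fluorescent label TRDA and were aspirated from slices through glass electrodes 4 weeks after spinal cord injury. Smart-seq2, which makes cDNA over whole transcripts from very little RNA, was applied to 3 sham libraries with no treatment, 3 untrained libraries with spinal cord injury, and 3 libraries in which the injury was followed by synergistic bidirectional electrical stimulation (SBES). Stimulation ran at 10 Hz in SBES 1, 15 Hz in SBES 2 and 20 Hz in SBES 3, so frequency and library cannot be told apart. The labels name 3 mice per group and single cells as the source, but tie no library to a mouse and state no number of cells. The protocol, however, mentions a microgram amount of total RNA, so the input per library is uncertain. The p-values reflect only how far these libraries spread, which may be technical in part.

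Cytochrome c oxidase, complex IV of the mitochondrial respiratory chain, passes electrons from cytochrome c to oxygen and pumps protons across the inner membrane. Its catalytic core is encoded in mitochondrial DNA, and nuclear genes encode the surrounding subunits, which bear on assembly, stability and regulation. For some of these subunits heart and skeletal muscle carry a form of their own, while most other tissues, brain and spinal cord included, use the common form. Cox4i2 is best known from lung and from vessel-associated cells, where it takes part in oxygen sensing.

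Cox7a1 (ENSMUSG00000074218, chromosome 7, 30184144 to 30186078, plus strand), Cox8b (ENSMUSG00000025488, 140898945 to 140900446, minus strand) and Cox6a2 (ENSMUSG00000030785, 128205435 to 128206387, minus strand) all lie on chromosome 7 but are not neighbours. Cox7a2 (ENSMUSG00000032330) lies on chromosome 9, 79755361 to 79759878, minus strand, and Cox8a (ENSMUSG00000035885) on chromosome 19, 7215153 to 7217616, minus strand. Cox6a1 (ENSMUSG00000041697) lies on chromosome 5, 115345642 to 115348981, minus strand. Cox4i1 (ENSMUSG00000031818) lies on chromosome 8, 120668222 to 120674207, plus strand, and Cox4i2 (ENSMUSG00000009876) on chromosome 2, 152754173 to 152765037, plus strand. All are protein-coding genes, and these coordinates are those of the deposited table in build mm10.

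The promoters of the Cox7a1 and Cox7a2 pair and of the Cox8b and Cox8a pair are shown because the forms of each pair differ in CpG content. RefSeq promoters of GRCm38.p6, the assembly called mm10, were given for 5 of the 8 genes, and Cox6a2, Cox4i1 and Cox4i2 were not among them. The sequences run 5′ to 3′ on the gene's strand, over the 220 bases that end 31 bases before the RefSeq start, with each CG dinucleotide in capitals.
Cox7a1, chr7:30183921-30184140, plus strand: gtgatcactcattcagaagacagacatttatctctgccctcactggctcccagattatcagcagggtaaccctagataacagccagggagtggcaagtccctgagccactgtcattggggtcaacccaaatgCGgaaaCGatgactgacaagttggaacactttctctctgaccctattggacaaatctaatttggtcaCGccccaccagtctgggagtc
Cox8b, chr7:140900477-140900696, minus strand: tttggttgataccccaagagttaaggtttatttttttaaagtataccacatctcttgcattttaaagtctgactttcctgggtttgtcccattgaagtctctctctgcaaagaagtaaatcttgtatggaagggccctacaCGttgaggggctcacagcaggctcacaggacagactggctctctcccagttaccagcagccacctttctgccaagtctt
Cox7a2, chr9:79759884-79760103, minus strand: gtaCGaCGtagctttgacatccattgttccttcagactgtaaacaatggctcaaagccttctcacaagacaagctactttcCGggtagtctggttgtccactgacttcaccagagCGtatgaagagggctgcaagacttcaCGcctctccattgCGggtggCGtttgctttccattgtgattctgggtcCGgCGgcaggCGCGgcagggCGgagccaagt
Cox8a, chr19:7217647-7217866, minus strand: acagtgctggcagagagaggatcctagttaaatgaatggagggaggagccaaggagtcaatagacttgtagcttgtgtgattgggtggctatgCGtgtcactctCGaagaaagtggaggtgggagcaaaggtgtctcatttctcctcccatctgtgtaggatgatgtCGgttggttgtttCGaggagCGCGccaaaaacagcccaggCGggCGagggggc
The printed stretch holds 3 CG dinucleotides for Cox7a1 and 1 for Cox8b, against 12 for Cox7a2 and 8 for Cox8a.

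Over the whole 300-base window, from 250 bases before to 50 after the start, the common forms were richer in CpG than the muscle-type forms. The window held 7 CG dinucleotides in Cox7a1 and 2 in Cox8b, against 20 in Cox7a2, 19 in Cox8a and 32 in Cox6a1. The ratio of observed to expected CpG was 0.333 in Cox7a1, above 45.3% of the 32851 promoters of the same length, and 0.115 in Cox8b, above 15.6%. It was 0.833 in Cox7a2, above 81.8%, 0.842 in Cox8a, above 82.6%, and 1.08 in Cox6a1, above 97.3%. The ETS core CCGGAA, searched on both strands like every motif here, matched once in Cox7a2, 3 times in Cox8a and once in Cox6a1, and 14.9% of all promoters hold it. Neither muscle-type window held it. The NRF1 core GCGCATGC matched at 2 overlapping positions, on opposite strands, in Cox6a1 alone among the 5, against 2.71% of all promoters. TATAAA matched only in Cox8b, 4 bases downstream of the start, and 13.6% of all promoters hold it. The E box CANNTG matched once in Cox7a1, 2 times in Cox8b, once in Cox7a2 and once in Cox8a, against 72.3% of all promoters. The estrogen-related receptor element AAGGTCA (4.72% of all promoters) and the MEF2 cores CTATTTATA (0.429%) and CTAAAAATA (0.517%) matched in none of the 5. A match is a string of letters in this window, not a measured binding site.

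The pairs could be told apart by the counting. Over the coding sequences of GENCODE M21, Cox7a1 and Cox7a2 shared 64.2% of aligned bases, Cox8b and Cox8a 57.6%, Cox6a2 and Cox6a1 66.6%, and Cox4i2 and Cox4i1 69.6%. The longest run of identical bases in these pairs was 12, 11, 12 and 14 bases. Cox7a1, Cox8b, Cox6a2, Cox8a and Cox4i2 shared none of their 31-base words with another gene. Cox6a1 shared 18.5% with AC148174.2, which had 9 counts over all libraries, and Cox7a2 shared 2.85% with the pseudogene Gm13433, which had 0. For Cox4i1 the share was 3.67%, spread over 120 genes. Cox4i1, Cox6a1 and Cox7a2 are uncertain to this extent, since reads of a copy can be split or lost.

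Total counts ran from 11821145 to 17675948 per library, and mitochondrially encoded genes took 2.47 to 18.6% of them, most in SBES 1 and next in sham 1 at 7.36%. The TMM scaling factor was 0.727 in sham 1 and 0.760 in SBES 1, against 1.02 to 1.16 in the other 7 libraries. Of the 9 motor neuron markers, all passed the filter, and Chat, the enzyme that makes acetylcholine, had 29.6, 27.8 and 25.9 CPM on average in sham, untrained and SBES libraries. Myelin and other glial transcripts were abundant too: the 7 oligodendrocyte markers summed to 38252 to 108823 CPM per library, highest in sham 1, against 220 to 1004 CPM for the motor neuron markers. The libraries thus held motoneuron and glial transcripts together, and the isoform levels below cannot be assigned to a cell type. How the glial transcripts came in was not tested. Fewer cells of a type and less RNA per cell cannot be told apart.

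The common forms and Cox4i1 were among the more abundant transcripts, and the muscle-type forms and Cox4i2 were scarce. FPKM divides counts by exonic length and library total, so it allows levels of different genes to be set side by side. Averaged over the 9 libraries, FPKM was 4809 for Cox6a1, 2989 for Cox4i1, 2946 for Cox8a and 722 for Cox7a2, against 22.0 for Cox7a1, 7.31 for Cox8b, 5.35 for Cox6a2 and 5.08 for Cox4i2. Cox6a1 exceeded Cox8a and Cox4i1 in 9 of 9 libraries. Cox8a and Cox4i1 did not differ beyond their spread, Cox8a being higher in 2 of 3 sham, 0 of 3 untrained and 2 of 3 SBES libraries. Both lay above Cox7a2 in all 9, and Cox7a2 lay above Cox7a1 in all 9. Among the scarce forms the order differed between the groups as well. Cox7a1 exceeded Cox8b in 9 of 9 libraries. Cox6a2 had less FPKM than Cox8b in 3 of 3 sham libraries, more in 1 of 3 untrained and more in 3 of 3 SBES libraries, and in SBES 1 they were level, at 2.86 and 2.82 FPKM. These neighbours therefore differed beyond their spread in sham libraries but not in untrained or SBES libraries.

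**Figure D1:**
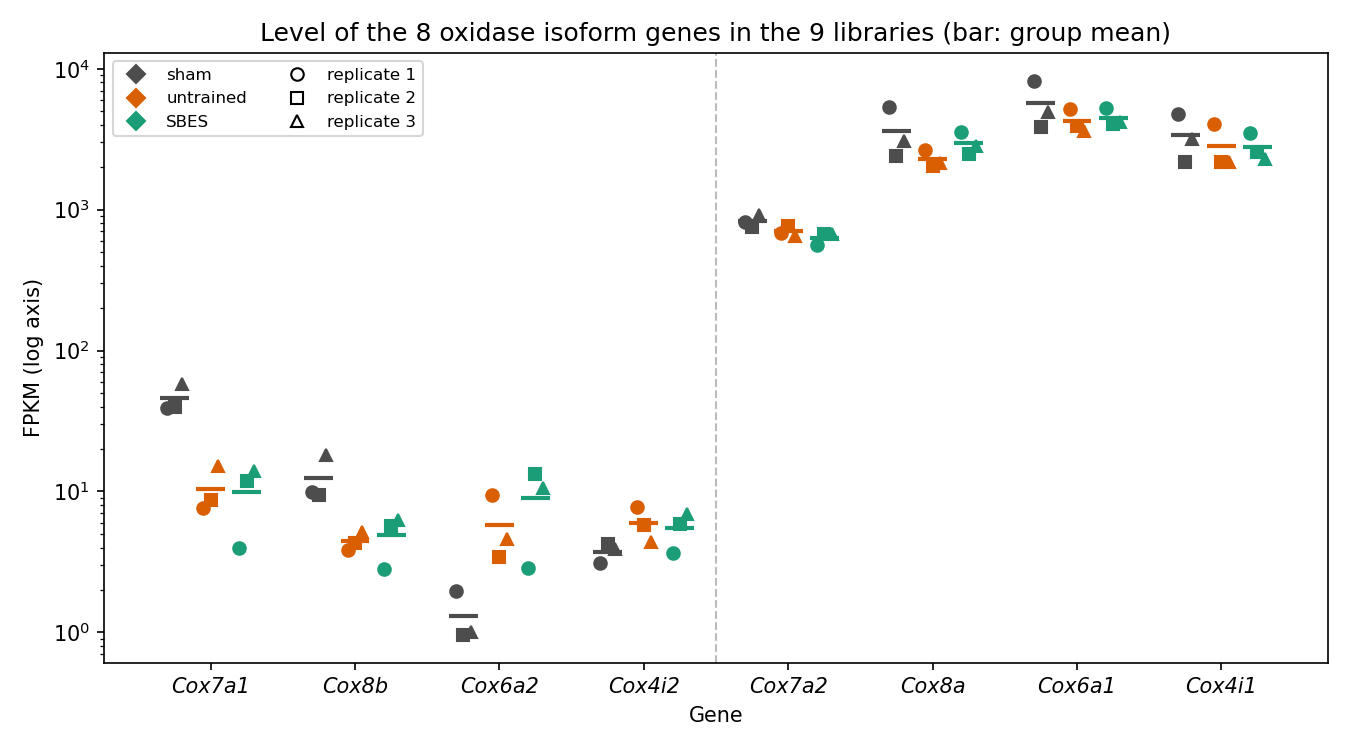
FPKM on a log axis for each of the 8 genes, with a point per library coloured by group and shaped by replicate, and a bar at the group mean. Left of the dashed line the scarce forms lie at or below 58.1 FPKM, and right of it the common forms and Cox4i1 lie at or above 557 FPKM; Cox7a1 and Cox8b sit highest in sham and Cox6a2 lowest in sham.

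Cox7a1, the muscle-type form of subunit 7A, which sits where complex IV dimers and supercomplexes meet, was lower in every injured library than in any sham library. Sham libraries 1 to 3 had 39.2, 40.0 and 58.1 FPKM. The untrained libraries had 7.66, 8.68 and 15.1 FPKM and the SBES libraries 3.95, 11.9 and 14.0. The highest injured library, untrained 3, lay well under the lowest sham library, and the injured groups overlapped each other. In counts the range was 265 to 549 in sham and 25 to 121 in injured libraries. Scaled by TMM, Cox7a1 averaged 25.8 ± 6.22 CPM in the sham group, 5.07 ± 1.93 CPM in the untrained group and 5.30 ± 2.32 CPM in the SBES group (SD, n = 3 each). The log2 fold change was -2.35 (SE 0.38) in untrained against sham, which is 5.08-fold lower, and -2.26 (SE 0.38) in SBES against sham, 4.80-fold lower.

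Cox8b, the muscle-type form of subunit 8, a small subunit that spans the membrane, had the same order of groups at a lower level. Its FPKM was 9.89, 9.50 and 18.2 in sham libraries 1 to 3. In the untrained libraries it was 3.86, 4.30 and 5.17, and in the SBES libraries 2.82, 5.73 and 6.29. Again no injured library reached the sham range, sham 3 was the highest library and SBES 1 the lowest. The means were 4.74 ± 1.68, 1.45 ± 0.208 and 1.81 ± 0.448 CPM (SD, n = 3 each) in sham, untrained and SBES libraries. In untrained against sham Cox8b had a log2 fold change of -1.70 (SE 0.38), 3.26-fold lower, and in SBES against sham of -1.37 (SE 0.38), 2.58-fold lower. These rest on 45 to 116 counts in sham and 12 to 36 in injured libraries.

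Cox6a2, the muscle-type form of subunit 6A, had the opposite order. It had 1.98, 0.96 and 1.00 FPKM in sham libraries 1 to 3. In the untrained libraries the FPKM was 9.39, 3.41 and 4.60, and in the SBES libraries 2.86, 13.4 and 10.5. Every injured library lay above every sham library, and the injured libraries themselves ranged widely, by FPKM from SBES 1, the lowest, to SBES 2, the highest. Scaled by TMM the lowest injured library was untrained 2 at 2.00 CPM, close to sham 1 at 1.85 CPM. Counts were 9 to 17 in sham and 23 to 119 in injured libraries, so the sham level is close to the limit of what these depths resolve. Mean CPM was 1.03 ± 0.717 in sham, 3.64 ± 2.15 in untrained and 5.95 ± 3.00 in SBES libraries (SD, n = 3 each). The log2 fold change was 1.90 (SE 0.61) in untrained against sham, 3.74-fold higher, and 2.63 (SE 0.61) in SBES against sham, 6.20-fold higher. The value in untrained against sham moved to 1.36 without untrained 1 and to 2.58 without sham 1.

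The 3 muscle-type forms thus did not share a direction. Cox7a1 and Cox8b were lower and Cox6a2 higher in all 6 injured libraries than in all 3 sham libraries. Of the 15893 genes tested, 1.86% were lower in all 6 injured libraries and 1.77% were higher. Of all genes, 5.13% were lower and 4.63% higher in every untrained library than in every sham library, and for SBES libraries these shares were 6.73% and 7.10%. The members' own positions were known when they were chosen, so nothing is read from their count against these shares. Both comparisons use the same sham libraries, and their values for a gene are not independent.

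Across the 9 libraries log2(CPM + 1) of Cox7a1 and Cox8b correlated with Pearson r = 0.96 and Spearman rho = 0.93, while Cox7a1 and Cox6a2 gave r = -0.62. Cox8a, Cox6a1 and Cox4i1 formed a second block, with r = 0.98 for Cox8a and Cox6a1, 0.97 for Cox6a1 and Cox4i1 and 0.92 for Cox8a and Cox4i1. Cox7a1 gave r = 0.33 with Cox8a, 0.29 with Cox6a1 and 0.18 with Cox4i1. Cox6a2 and Cox4i2 gave r = 0.84. These describe 9 points that fall into 3 groups and share library, depth and scaling. Cox7a1 and Cox8b were also chosen because both were lower in untrained than in sham libraries. That choice alone favours a high r between them.

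**Figure D2:**
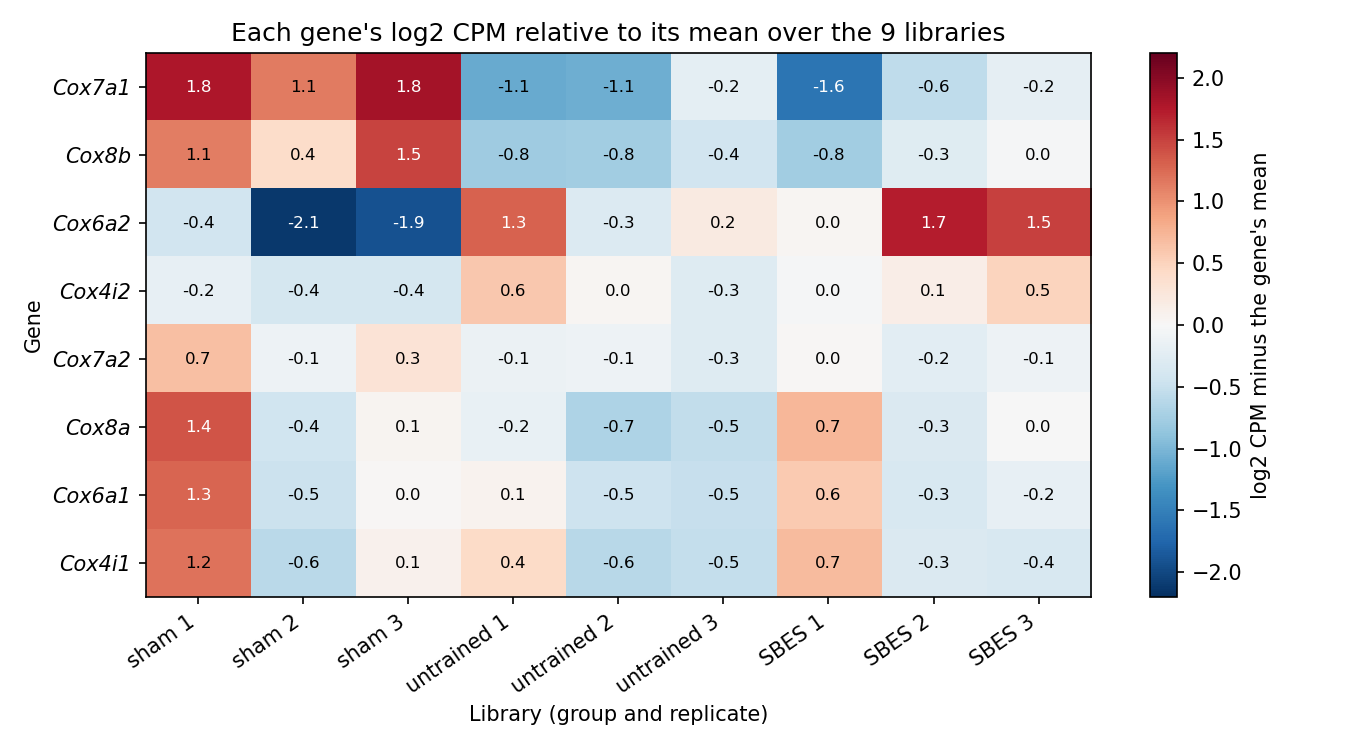
Heat map of log2 CPM of each gene minus its own mean over the 9 libraries, with genes in rows and libraries in columns; red is above and blue below the mean. Cox7a1 and Cox8b are red in the 3 sham libraries, Cox6a2 is blue in them, and Cox8a, Cox6a1 and Cox4i1 are highest in sham 1 and SBES 1.

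The genes whose profile over the 9 libraries was most like Cox7a1 were Mmp9, a secreted protease (r = 0.98), Ninj2, an adhesion protein (r = 0.95), Gng8, a G protein gamma subunit (r = 0.94), Dhcr7, the last enzyme of cholesterol synthesis (r = 0.94), and Tst, a mitochondrial sulfur transferase (r = 0.93). They were ranked by Pearson r of log2(CPM + 1) among 9543 genes with a mean of at least 5 CPM. For Cox8b they were Mmp9 (r = 0.97), Cox7a1 (r = 0.96), Ndufb3, a complex I subunit (r = 0.94), Tomm7, part of the outer membrane import complex (r = 0.92), and Gng8 (r = 0.92). Mmp9 averaged 8.61 CPM in sham, 5.57 in untrained and 5.72 in SBES libraries, and Ninj2 20.4, 5.93 and 5.91 CPM. With Spearman in place of Pearson 1 of the 5 genes stayed in each list, so the ranking depends on the measure. That count also rests on ties, which were broken by name. For Cox7a1 the fifth Spearman place was shared by 7 genes at rho = 0.95, Gng8 among them. For Cox8b 6 genes shared the top at rho = 0.93.

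Electrical stimulation was compared with injury alone for all 8 genes, and none passed the test. Cox7a1 had a log2 fold change of 0.08 (SE 0.38) in SBES against untrained, Cox8b 0.34 (SE 0.39) and Cox6a2 0.73 (SE 0.54). For the common forms it was 0.08 (SE 0.24) in Cox7a2, 0.65 (SE 0.44) in Cox8a and 0.33 (SE 0.43) in Cox6a1. Cox4i1 had 0.25 (SE 0.48) and Cox4i2 0.06 (SE 0.32). The adjusted p of edgeR's quasi-likelihood test with Benjamini-Hochberg adjustment over all genes lay between 0.993 and 0.999 for the 8 genes, and 0 of 15893 genes (0%) passed 0.05. At an unadjusted p under 0.05 there were 854 genes, and DESeq2 called 30 (0.193%). The value of Cox6a2 was 1.30 without untrained 1, and 1.64 without all replicate 1 libraries (edgeR adjusted p = 0.138), where SBES 2 and 3 had 8.25 and 7.05 CPM and untrained 2 and 3 had 2.00 and 2.84. The sign of the fold change of Cox7a1, Cox7a2, Cox4i1 and Cox4i2 turned under other scalings or with 1 library left out.

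The common forms were lower on average in untrained than in sham libraries, and none passed the test. Cox7a2, the common form of subunit 7A, had 824, 758 and 914 FPKM in sham libraries 1 to 3. The untrained libraries had 685, 769 and 647 FPKM and the SBES libraries 557, 673 and 671. Untrained 2 fell within the sham range, and by FPKM all SBES libraries lay under it, but by TMM-scaled CPM the SBES and sham libraries overlapped, SBES 1 having 692 and sham 2 having 624 CPM. In CPM the means were 842 ± 223, 599 ± 39.4 and 631 ± 58.3 (SD, n = 3 each). The log2 fold change was -0.49 (SE 0.24) in untrained against sham and -0.42 (SE 0.24) in SBES against sham, with adjusted p of 1.00 and 0.666 in edgeR's quasi-likelihood test.

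Cox8a, the common form of subunit 8, had 5342, 2395 and 3048 FPKM in sham libraries 1 to 3. The untrained libraries had 2660, 2040 and 2136 FPKM and the SBES libraries 3545, 2501 and 2850. Sham 1 stood above the rest, and the groups overlapped. Cox8a had a log2 fold change of -0.99 (SE 0.44) in untrained against sham and -0.35 (SE 0.44) in SBES against sham (edgeR quasi-likelihood test, Benjamini-Hochberg adjusted p = 1.00 and 0.879).

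Cox6a1, the common form of subunit 6A and the most abundant of the 8 genes by FPKM, had 8220, 3841 and 4959 FPKM in sham libraries 1 to 3. Its FPKM was 5198, 3947 and 3642 in the untrained libraries, and 5262, 4040 and 4172 in the SBES libraries. Replicate 1 was the highest library in each group, and the groups overlapped. For Cox6a1 the log2 fold change was -0.74 (SE 0.43) in untrained against sham and -0.40 (SE 0.43) in SBES against sham (edgeR quasi-likelihood test, Benjamini-Hochberg adjusted p = 1.00 and 0.851).

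Sham 1 carried much of these differences. Without it the log2 fold change in untrained against sham was -0.25 for Cox7a2, -0.24 for Cox8a and -0.03 for Cox6a1. In SBES against sham it was -0.19 for Cox7a2, 0.39 for Cox8a and 0.29 for Cox6a1, the last a change of sign for both Cox8a and Cox6a1. Malat1, a nuclear RNA, took 1.51% of counts in sham 1, 1.61% in untrained 1 and 0.477% in SBES 1, against 0.0514 to 0.162% in the other 6 libraries. The part of this, of the low scaling factor and of the high mitochondrial share of sham 1 and SBES 1 in these values was not tested.

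Cox4i1, the common form of subunit 4, the largest nuclear-encoded subunit of the complex, followed the common forms. It had 4751, 2178 and 3193 FPKM in sham libraries 1 to 3. The untrained libraries had 4054, 2185 and 2190 FPKM and the SBES libraries 3520, 2550 and 2276. Replicate 1 was the highest library in all 3 groups, and the groups overlapped. The log2 fold change was -0.58 (SE 0.48) in untrained against sham and -0.33 (SE 0.48) in SBES against sham (edgeR quasi-likelihood test, Benjamini-Hochberg adjusted p = 1.00 and 0.903), and without sham 1 it was 0.08 and 0.32.

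Cox4i2, the low-oxygen form of subunit 4, was scarce in all groups. Its FPKM was 3.11, 4.25 and 3.88 in sham libraries 1 to 3. In the untrained libraries it was 7.75, 5.81 and 4.39, and in the SBES libraries 3.65, 5.91 and 6.94. By FPKM all 3 untrained libraries lay above the sham range and SBES 1 lay within it. By TMM-scaled CPM, which raises the level of sham 1 and SBES 1, the untrained libraries overlapped sham and the SBES libraries did not, so the separation depended on the scaling. Mean CPM was 3.08 ± 0.258 in sham, 4.30 ± 1.37 in untrained and 4.47 ± 0.822 in SBES libraries (SD, n = 3 each). Cox4i2 had a log2 fold change of 0.48 (SE 0.32) in untrained against sham and 0.55 (SE 0.33) in SBES against sham (edgeR quasi-likelihood test, Benjamini-Hochberg adjusted p = 1.00 and 0.677). Markers of pericytes, vessel-associated cells known to carry Cox4i2, summed to 117 to 220 CPM in sham, 224 to 281 in untrained and 166 to 196 in SBES libraries. All 8 of these markers passed the filter, and none was called. In untrained against sham 6 had a positive and 2 a negative log2 fold change (median 0.265). In SBES against sham 7 were positive and 1 negative (median 0.377). The 7 endothelial markers summed to 124 to 207 CPM in sham, 173 to 322 in untrained and 127 to 238 in SBES libraries, and all 7 had a positive log2 fold change in untrained against sham (median 0.77) and in SBES against sham (median 0.26). Over all genes 49.1% were positive in untrained and 49.8% in SBES against sham. The part of either list in the Cox4i2 values was not tested.

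**Figure D3:**
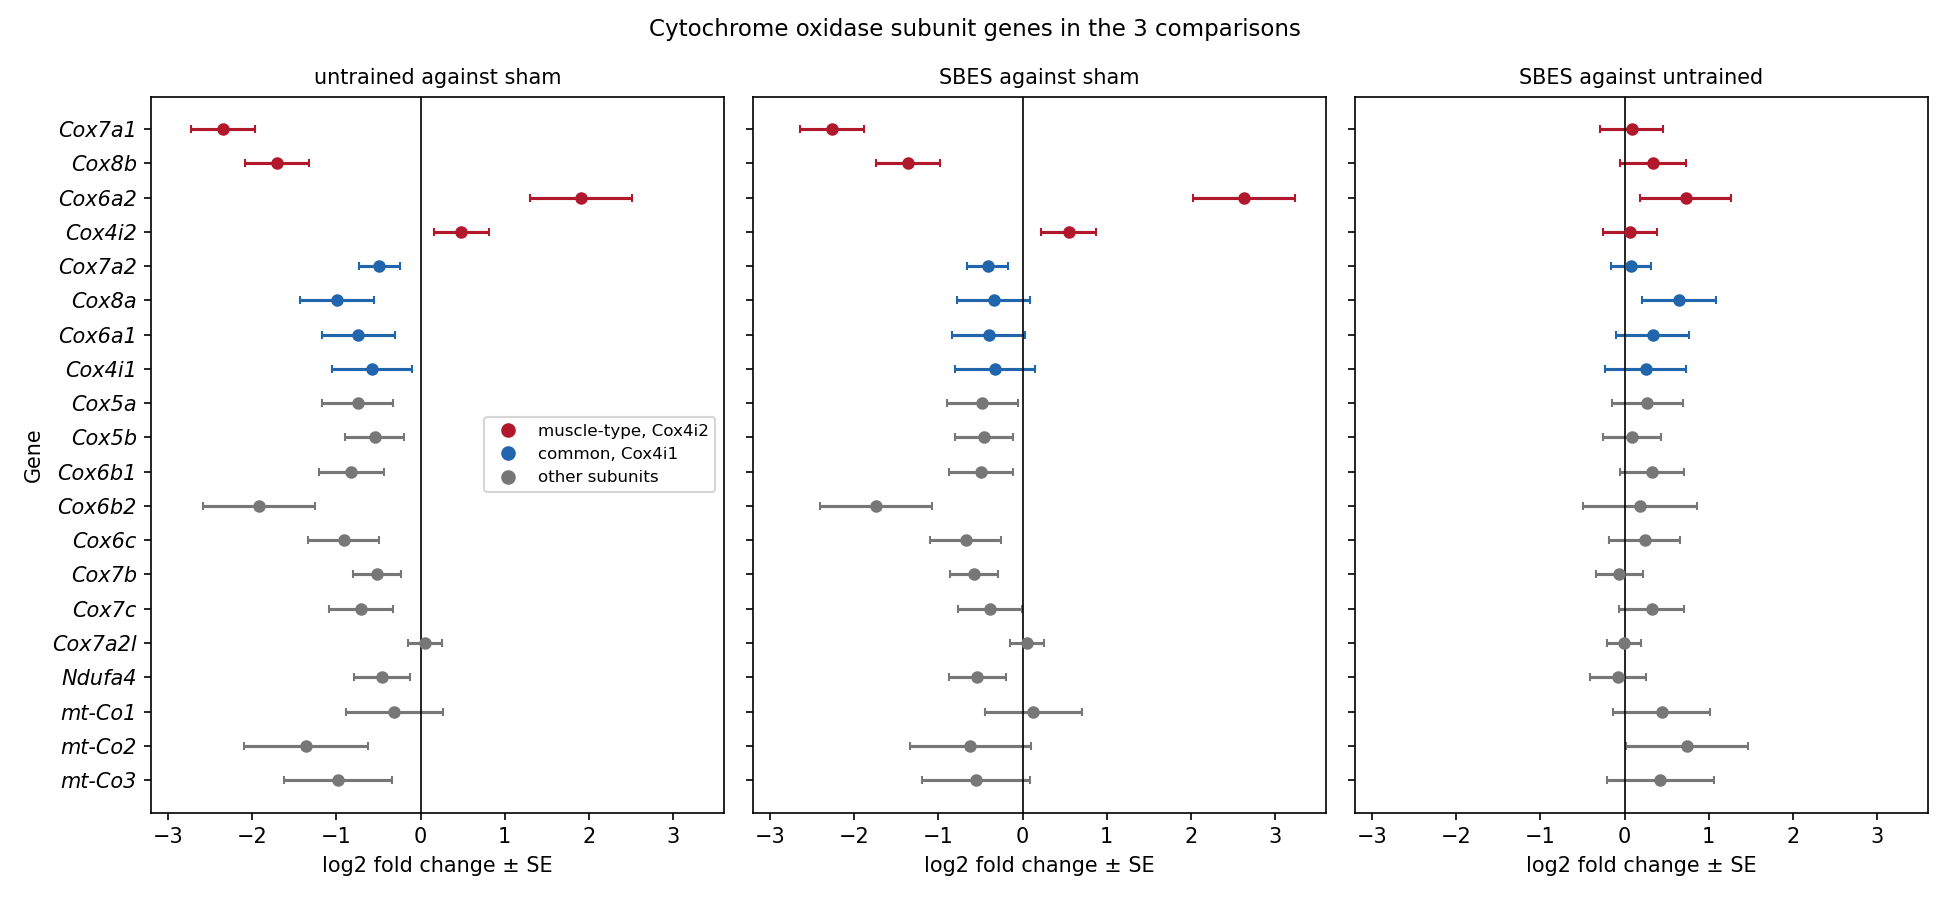
Log2 fold change with its SE (edgeR, 3 libraries per group) of the 8 genes and the other cytochrome oxidase subunit genes in the 3 comparisons; red marks the muscle-type forms and Cox4i2, blue the common forms and Cox4i1, grey the other subunits. Against sham, Cox7a1 and Cox8b lie left of the common forms and Cox6a2 lies right of zero, while in SBES against untrained all 8 lie between 0.06 and 0.73.

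The share of the muscle-type form within each pair does not depend on the scaling between libraries. Cox7a1 made up 4.54, 5.01 and 5.97% of the pair's FPKM in sham libraries 1 to 3. It made up 1.11, 1.12 and 2.27% in the untrained and 0.704, 1.73 and 2.04% in the SBES libraries. The sham libraries did not overlap the others, and the means were 5.17 ± 0.729, 1.50 ± 0.671 and 1.49 ± 0.699% (SD, n = 3 each). The log2 ratio of Cox7a1 to Cox7a2 was lower by 1.91 (SE 0.37) in untrained and by 1.96 (SE 0.49) in SBES than in sham libraries.

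For subunit 8 the shares overlapped. Cox8b made up 0.185, 0.395 and 0.595% in sham libraries 1 to 3. The untrained libraries had 0.145, 0.210 and 0.241%, and the SBES libraries 0.0795, 0.229 and 0.220%. Sham 1, where Cox8a was highest, fell among the injured libraries. The difference in log2 ratio to sham was -0.84 (SE 0.54) in untrained and -1.13 (SE 0.70) in SBES libraries. The lower level of Cox8b was thus less distinct once set against Cox8a in the same library.

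For subunit 6A the share of Cox6a2 was 0.0241, 0.0250 and 0.0202% in sham libraries 1 to 3, a narrow range. It was 0.180, 0.0863 and 0.126% in untrained and 0.0543, 0.330 and 0.252% in SBES libraries, all above sham. The log2 ratio was higher by 2.36 (SE 0.31) in untrained and by 2.76 (SE 0.80) in SBES than in sham libraries. Cox4i2 made up 0.0654, 0.195 and 0.121% of subunit 4 in sham, 0.191, 0.265 and 0.200% in untrained and 0.104, 0.231 and 0.304% in SBES libraries, and its groups overlapped. Its log2 ratio to Cox4i1 differed from sham by 0.89 (SE 0.48) and 0.74 (SE 0.65).

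Between SBES and untrained libraries the log2 ratio differed by -0.05 (SE 0.59) for Cox7a1 to Cox7a2, -0.29 (SE 0.54) for Cox8b to Cox8a, 0.40 (SE 0.85) for Cox6a2 to Cox6a1 and -0.16 (SE 0.48) for Cox4i2 to Cox4i1. Exact two-sided permutation tests gave p = 0.9, 0.7, 0.7 and 0.9, each 0.9 after Benjamini-Hochberg adjustment over the 4 pairs. With 3 libraries against 3 the smallest p possible was 0.1, so these tests could not have passed 0.05. Leaving out 1 library turned the sign in each of the 4 pairs.

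**Figure D4:**
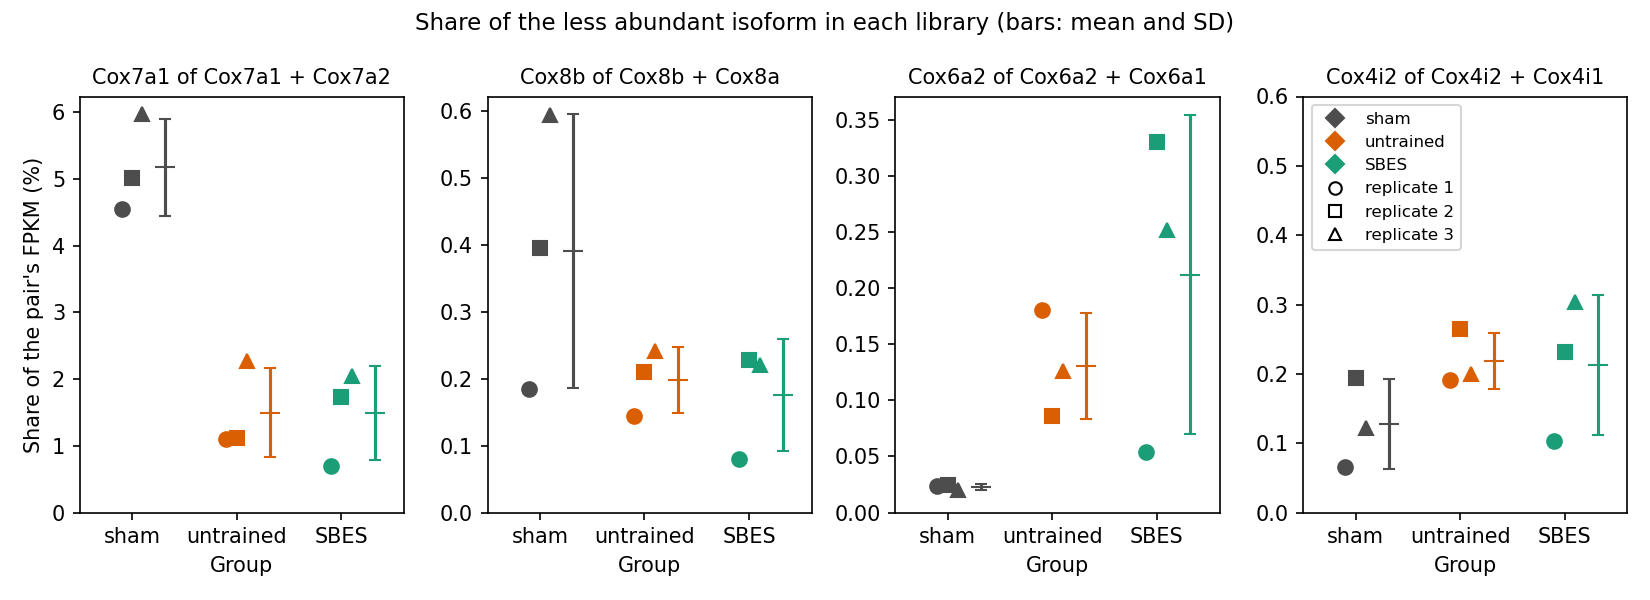
Share of the scarcer form in the summed FPKM of its pair, in percent, for each library, in 1 panel per pair with its own axis from 0; bars give the mean and SD of 3 libraries. Cox7a1 lies between 4.54 and 5.97% in sham and at or below 2.27% in the injured libraries, and Cox6a2 lies at or below 0.0250% in sham and at or above 0.0543% in the injured libraries.

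The other nuclear-encoded subunits of complex IV had values near those of the common forms. Of 10 such genes 9 passed the filter, and Cox8c had 1 count in all. In untrained against sham 8 of the 9 had a negative and 1 a positive log2 fold change, with a median of -0.71, against -0.01 over all genes, and none of them passed the test. SBES against untrained gave a median of 0.18, and -0.50 was the median against sham, again with 0 called. Without sham 1 the medians against sham were -0.18 and -0.003. Cox6b2, known as the testis form of subunit 6B, had the lowest value, -1.92 (SE 0.67) in untrained against sham, with 7.55 ± 4.79 CPM in sham, 1.98 ± 1.59 in untrained and 2.21 ± 0.975 in SBES libraries (SD, n = 3 each). Its adjusted p in edgeR was 1.00, and 0.413 for -1.74 (SE 0.67) in SBES against sham. Cox7a2l, a supercomplex assembly factor related to subunit 7A, had the highest value in both, 0.05 (SE 0.20). In SBES against untrained the lowest was Ndufa4 at -0.08 and the highest Cox6b1, the common form of subunit 6B, at 0.32.

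The catalytic core subunits mt-Co1, mt-Co2 and mt-Co3, encoded in mitochondrial DNA, had log2 fold changes of -0.32, -1.36 and -0.98 in untrained against sham, with no call. Their summed level was 22817 CPM in sham 1 and 24288 in SBES 1, against 5878 to 11362 CPM in the other 7 libraries. Without sham 1 their median in untrained against sham turned from -0.98 to 0.34. Of 21 assembly factors 20 passed the filter, none was called, and the median was -0.18 in untrained against sham, -0.24 in SBES against sham and -0.13 between the injured groups. Cycs, the electron donor cytochrome c, had -0.18, -0.66 and -0.48 in the same order, with no call.

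Genes that share the tissue or the regulators of the muscle-type forms were read from lists of their own. Of 8 mitochondrial genes characteristic of heart and skeletal muscle 6 passed the filter, none was called, and the median was 0.06 in untrained and 0.14 in SBES against sham. The 12 regulators of mitochondrial gene expression, among them Ppargc1a, Esrra and Nrf1, all passed, with medians of -0.06 and 0.17 and no call. Of 13 genes of the low-oxygen response and of Cox4i2 regulation, 11 had a positive log2 fold change in untrained against sham. Their median was 0.53, with no call. In SBES against sham 9 were positive, with a median of 0.16. Over all genes 49.1% were positive in untrained and 49.8% in SBES against sham, with medians of -0.01 and -0.002. Slc2a1, the glucose transporter GLUT1, rose in SBES against sham by 1.56 (SE 0.27) on the log2 scale, from 122 ± 21.7 to 361 ± 129 CPM (SD, n = 3 each; edgeR adjusted p = 0.0366). Calca, a neuropeptide gene of motor neurons, fell by 2.54 (SE 0.41) on the log2 scale in SBES against sham, from 345 ± 177 to 59.3 ± 21.5 CPM (SD, n = 3 each; edgeR adjusted p = 0.0287). These were the 2 genes of the pathway and marker lists, the members apart, that passed the test in any comparison. The lists were drawn up with earlier results of these data known, so nothing further is read from these 2 calls. In SBES against sham 55 of 15893 genes (0.346%) were called by edgeR's quasi-likelihood test, 43 higher and 12 lower, 132 with the replicate number as a block, and 300 (1.89%) by DESeq2. Without sham 3 edgeR called 0 genes in that comparison, Slc2a1 and Calca included, and without SBES 3, sham 2 or sham 1 it called 4, 6 and 29. In untrained against sham edgeR called 0 (0%), with 707 at an unadjusted p under 0.05, and DESeq2 called 18 (0.113%).

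Markers of muscle had overlapping sums in the 3 groups. Of 15 skeletal muscle markers 7 passed the filter, and their sum was 28.4 to 36.4 CPM in sham, 24.6 to 42.6 in untrained and 24.2 to 36.4 in SBES libraries. The fast myosins and their partners were at or near 0: Myh4 had 3 counts over all libraries, Myh1 had 5, Myh2 had 6, the fast troponin Tnnc2 had 1 and the calcium pump Atp2a1 had 10. Other markers of the list were present: the slow myosin Myh7 had 1570 counts, Casq1 1139, Mylpf 702, Acta1 285 and Tnni2 127. The mean of Myh7 was 13.4 CPM in the sham group, 12.4 in the untrained group and 9.91 in the SBES group, and that of Casq1, a calcium-binding protein of the muscle reticulum, was 5.69, 7.36 and 12.1 CPM. Of 8 cardiac markers 4 passed, with sums of 3.43 to 9.72 CPM over all libraries, and Tnnt2 had 301 counts, Myl2 193 and Actc1 5. Ucp1, which defines brown adipocytes, another cell type with Cox7a1 and Cox8b, had 3 counts. Of the 6 markers of that type only Cidea passed, with 1573 counts, at 8.76 to 13.9 CPM in sham, 10.4 to 13.3 in untrained and 9.92 to 14.4 in SBES libraries. The part of the muscle and adipocyte markers that were detected in the values of Cox7a1 and Cox8b was not tested. Vascular smooth muscle markers summed to 24.0 to 40.5 CPM in sham, 27.8 to 34.6 in untrained and 30.0 to 45.7 in SBES libraries.

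Sums of neuronal and glial markers varied between libraries. The 9 motor neuron markers summed to 392 to 1004 CPM in sham, 220 to 385 in untrained and 322 to 418 in SBES libraries. Their sum was highest in sham 3, where Cox7a1 and Cox8b were also highest. In sham 1 the sum was 392 CPM, under the 418 of SBES 1, while Cox7a1 had 28.9 CPM in sham 1 and 29.9 in sham 3. Calca made up 213 to 546 CPM of the motor neuron sum in sham libraries. Without it the groups overlapped, at 179 to 459 CPM in sham, 133 to 338 in untrained and 244 to 355 in SBES libraries. The 8 pan-neuronal markers summed to 8653 to 13092 CPM in sham and 6484 to 6766 in untrained libraries, without overlap. In SBES libraries they summed to 5850 to 12657 CPM. Of the 8, 7 had a negative log2 fold change in untrained against sham (median -0.59) and 4 in SBES against sham (median -0.06). In untrained against sham 6 of 6 microglia markers were positive, with a median of 0.37. The 4 ependymal markers that passed were all negative there, with a median of -0.90. The summed CPM of both lists overlapped between sham and untrained libraries. In SBES against sham 4 of the 6 microglia markers were positive (median 0.46) and 3 of the 4 ependymal markers negative (median -0.29). The 7 oligodendrocyte markers summed to 49116 to 108823 CPM in sham, 38252 to 57683 in untrained and 46961 to 77018 in SBES libraries. All 7 had a negative log2 fold change in untrained against sham (median -0.55) and 5 in SBES against sham (median -0.21). The 6 astrocyte markers had overlapping sums, 2264 to 4098 CPM in sham, 1647 to 4222 in untrained and 2383 to 4967 in SBES libraries. The astrocyte median was -0.15 in untrained and 0.18 in SBES against sham. Over all genes 49.1% were positive in untrained and 49.8% in SBES against sham. The part of these lists in the values of Cox7a1 and Cox8b was not tested.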

How the data were processed

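Smart-seq2 libraries of mouse spinal motoneurons were analysed, 3 each of sham, untrained and SBES groups. Per the labels' protocols the authors aligned reads with Hisat2 2.0.1 and counted genes with HTSeq 0.6.1, and the submitters' processing notes name the build mm10; annotation release and strand setting were not given in the sources used here. A deposited table holds whole-number counts and FPKM per library, and FPKM computed again from counts and exonic lengths matched the deposited FPKM within 0.006 for 100% of values. The columns of 5 libraries were matched to samples by name and those of the other 4 (3 untrained, SBES at 10 Hz) by elimination.

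Counts were tested with edgeR 4.0.16 in R 4.3.3 (filterByExpr, TMM, quasi-likelihood test, 1 coefficient per group over all 9 libraries, Benjamini-Hochberg over 15893 genes, adjusted p under 0.05), after the code was tested on simulated data. The SE of an edgeR log2 fold change is its absolute value divided by the square root of the quasi-likelihood F statistic. For the muscle-type genes against sham this SE is a description only. CPM is scaled by TMM. Isoform ratios are log2 of FPKM with a pseudocount of 0.1. Alternatives were DESeq2 1.42.0, limma 3.58.1, other scalings, no filter, 2 groups only, a replicate block and libraries left out. Members and lists were chosen with earlier results of these data known. Named genes are the members, the lowest and highest other oxidase subunits per comparison, called list members and the 5 genes most like Cox7a1 and Cox8b; core subunit, cytochrome c and marker values shown beside a result were added. Coding-sequence identity and shared words were computed after the data were seen, in Biopython 1.88. Without molecular identifiers, duplicated PCR products count as separate reads. The labels give the 3 groups the same replicate numbers without saying what a number shares. Between sham and SBES all 3 same-numbered pairs deviated together from the group means (r = 0.27, 0.16 and 0.14), so the fit with the replicate block is printed beside that count of calls; in the other comparisons 1 pair of 3 did not.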

Additional observations from a re-analysis of the deposited data

How the results depend on the processing

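The direction of the 3 muscle-type genes against sham held in 14 of 14 alternatives each. These genes were chosen with earlier results of these data known, and their injured libraries did not overlap the sham libraries. Leaving out libraries could thus hardly turn a sign, and nothing is read from this count. The log2 fold change in untrained against sham ranged from -2.70 to -2.08 for Cox7a1, -1.95 to -1.42 for Cox8b and 1.36 to 2.58 for Cox6a2, and in SBES against sham from -2.57 to -1.88, -1.62 to -1.09 and 2.33 to 3.63. With total counts in place of TMM the median of all genes shifted from -0.01 to 0.18 in untrained against sham and from 0.02 to -0.19 in SBES against untrained. In untrained against sham 0 genes were called, but 18 by DESeq2, 1 with total counts, 134 without the filter, 4 with the replicate block, 1 by limma and 47 without all replicate 1 libraries. In SBES against untrained 0 became 30 by DESeq2, 186 without the filter and 13 without all replicate 1 libraries, and 0 to 1 with single libraries left out. In SBES against sham 55 became 300 by DESeq2, 517 without the filter, 132 with the replicate block, 30 by limma and 581 without all replicate 1 libraries, and 0 (without sham 3) to 86 (without SBES 1) with single libraries left out. The causes were not tested.

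Signs turned as follows. In SBES against untrained, total counts gave -0.068 for Cox7a1, -0.145 for Cox7a2, -0.015 for Cox4i1 and -0.12 for Cox4i2, and limma -0.20, -0.15 and -0.13 for Cox7a1, Cox7a2 and Cox4i2. Single libraries left out gave -0.23 to 0.44 for Cox7a1, -0.17 to 0.63 for Cox4i1 and -0.12 to 0.32 for Cox4i2. In untrained against sham they gave -0.95 to 0.083 for Cox4i1, and in SBES against sham -0.67 to 0.39 for Cox8a, -0.71 to 0.29 for Cox6a1 and -0.73 to 0.32 for Cox4i1. Cox8a was 0.021 there without all replicate 1 libraries. The log2 ratios, SBES minus untrained, ranged from -0.35 to 0.42 (Cox7a1 to Cox7a2), -0.55 to 0.20 (Cox8b to Cox8a), -0.10 to 1.19 (Cox6a2 to Cox6a1) and -0.48 to 0.29 (Cox4i2 to Cox4i1). In SBES against untrained, the median of the other nuclear-encoded subunits was -0.010 with total counts and -0.008 with limma. The medians of the 3 core subunits without all replicate 1 libraries were 0.095 in untrained against sham, 0.137 in SBES against sham and -0.063 between the injured groups. Those of the assembly factors were 0.005 with total counts and 0.014 by limma in untrained against sham, and 0.036 in SBES against untrained without all replicate 1 libraries. With single libraries left out, the core subunits' medians ran from -1.42 to 0.34 in untrained against sham, -1.27 to 0.98 in SBES against sham and -0.31 to 0.79 between the injured groups, and that of the other nuclear-encoded subunits in SBES against untrained from -0.061 to 0.36.

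Deviations of same-numbered libraries from the group means correlated by 0.39, 0.00 and 0.22 between sham and untrained and by 0.24, -0.17 and 0.26 between untrained and SBES, so the numbers were not taken as pairs there. Not every library correlated best with its own number. The replicate block changed the counts of calls as given. It changed no other call, among Cox7a2, Cox8a, Cox6a1, Cox4i1 and Cox4i2 against sham and the 8 genes in SBES against untrained, and left the mean log2 ratios as they were (exact sign-flip p = 0.75, 0.5, 0.75 and 0.75 in the order above). In SBES against untrained Cox6a2 ranged from 0.43 to 1.64. Depth limits Cox6a2 most, with 9 to 17 counts in sham libraries.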
